A study of Homo sapiens with 6 samples.

Results

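Metallothioneins are small cysteine-rich proteins that bind zinc, copper and cadmium in the cytosol and serve as a buffer for these metals. When free zinc rises, the zinc finger factor MTF1 binds metal response elements before the metallothionein genes and before SLC30A1, which encodes the zinc exporter of the plasma membrane. Metallothionein transcripts are also known to respond to glucocorticoids and to oxidants, and in colon epithelium they are among the transcripts that follow the metal supply of the cell.

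The set comprised 8 genes: the metallothioneins MT1E, MT1F, MT1G, MT1M, MT1X and MT2A, the metal-responsive factor MTF1 and the exporter SLC30A1. They were taken by name, as the rows of the expression table whose gene symbol equals a member, and made up 8 of 60546 gene identifiers. The rule itself used no measured values, but the list was chosen with earlier results of these data known. The study sequenced RNA of HCT-116, an established human colorectal carcinoma line, carrying either a GOLPH3 construct (HCT-116-PMSCV-GOLPH3, 3 libraries) or the empty vector (HCT-116-PMSCV-Vector, 3 libraries), to ask what overexpression of this Golgi protein changes. All 6 are labelled wild type and colon, and the constructs were delivered by a virus into stable lines. The paper states that its overexpressing lines were selected with puromycin and does not state this for the Vector line. No other drug and no metal treatment is named for either group. The libraries of a group came from different generations of 1 line. The p-values therefore measure only the spread between these libraries. A P number, not explained in the labels, ends each sample title. It was 8, 12 and 13 in the GOLPH3 group and 12, 11 and 13 in the Vector group. Each library is called below by its group and this number.

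Values are normalized reads, that is, reads per gene divided by a factor per library with no correction for gene length, and the libraries held 15708846 to 21900764 reads. The transcript of GOLPH3 itself did not follow the labels. Its normalized reads were 1630, 1272 and 1383 where the label is GOLPH3 and 1968, 1892 and 1472 where it is Vector (log2 difference -0.31, SE 0.27, limma adjusted p = 0.609). All directions given here are therefore those of the labels. The study itself reported, from western blots of the GOLPH3 protein, that its overexpressing HCT-116 line had been made. Protein was not measured in these libraries. The groups also stood apart in markers of cell type. Of 12 tested colon epithelial markers KRT19 and KRT18 were called higher in the libraries labelled GOLPH3 (adjusted p = 0.0044 and 0.0363), the latter call being lost in 5 of 6 fits with a library left out (adjusted p up to 0.195 without Vector P12). The summed level of the 15 markers was 62968 to 134559 there against 30115 to 41240, and KRT20 was at 0 in every library. Of 9 tested markers of HEK293 and neuronal-like cells 7 were called lower, among them IRS4, which was at 0 in every library labelled GOLPH3 and at 1006 to 4831 normalized reads in those labelled Vector. The summed level of that list was 3042 to 4267 against 7766 to 13471. Nearly all of the sum in the libraries labelled GOLPH3 was HMGA2, which was not called (log2 difference 0.23, SE 0.29). It had 4109, 3434 and 2944 normalized reads there and 2798, 3929 and 2338 in those labelled Vector. The sums thus understate the contrast in the markers called lower. Fibroblast and mesenchymal markers did not share a direction. Of 9 tested, VIM, SPARC and PDGFRA were called lower, whereas COL1A1, COL6A3 and THY1 were higher at an unadjusted p under 0.05. That list summed to 930 to 1586 against 2206 to 4300, and without VIM to 889 to 1575 against 553 to 1106, which turns the direction. The identity of the lines and the assignment of the labels were not tested further. In such bulk libraries fewer cells of a type and less RNA per cell cannot be told apart.

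The 4 metallothioneins that carried reads are printed below as coding sequences, because their likeness bears on how reads can be assigned and because the metal-binding residues can be seen in them. The sequences are those of the first GENCODE 29 transcript of each gene on GRCh38, 5′ to 3′, with the cysteine codons in capitals.

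MT2A coding sequence: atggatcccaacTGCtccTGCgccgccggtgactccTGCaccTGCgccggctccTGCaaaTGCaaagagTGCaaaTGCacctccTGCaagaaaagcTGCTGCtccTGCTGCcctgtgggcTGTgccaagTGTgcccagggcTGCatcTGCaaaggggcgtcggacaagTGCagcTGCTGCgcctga
MT1E coding sequence: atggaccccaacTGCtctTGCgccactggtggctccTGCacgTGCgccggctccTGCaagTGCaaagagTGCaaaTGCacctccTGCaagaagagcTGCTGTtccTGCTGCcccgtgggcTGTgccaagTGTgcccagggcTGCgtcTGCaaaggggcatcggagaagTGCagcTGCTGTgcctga
MT1X coding sequence: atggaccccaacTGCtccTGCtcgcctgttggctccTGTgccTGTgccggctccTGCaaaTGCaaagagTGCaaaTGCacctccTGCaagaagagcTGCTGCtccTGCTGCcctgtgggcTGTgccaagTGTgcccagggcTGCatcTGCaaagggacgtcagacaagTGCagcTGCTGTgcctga
MT1F coding sequence: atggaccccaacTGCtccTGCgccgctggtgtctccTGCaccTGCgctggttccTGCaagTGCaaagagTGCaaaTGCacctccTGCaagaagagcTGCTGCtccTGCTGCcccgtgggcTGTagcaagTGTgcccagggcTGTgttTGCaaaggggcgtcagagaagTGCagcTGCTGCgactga

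Each of these is 186 bases long and holds 20 cysteine codons among 61 codons, or 32.8%. MT1G has 189 bases and the same 20 cysteine codons. Over the 6 metallothioneins of the set, the identity between 2 coding sequences ran from 88.7% for MT1F and MT1X to 93.7% for MT1G and MT2A. Reads from 1 copy could be assigned to another where a stretch is shared. Of the 50-base stretches in the transcripts of a gene, 3.02% in MT2A, 7.10% in MT1E, 1.22% in MT1F and 18.3% in MT1X also occurred in another gene. Of the 100-base stretches none did in MT2A, MT1E or MT1F, while 11.3% did in MT1X, all shared with the overlapping gene model AC026461.1. The values of MT1X are therefore less certain than those of the other members.

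The metallothionein genes lie together on chromosome 16 (GRCh38), where 15 listed metallothionein genes and pseudogenes fall within 119 kb from 56565049 to 56684196. In that order along the chromosome come MT2A at chr16:56608199-56609497, MT1E at chr16:56625475-56627112, MT1M at chr16:56632233-56633986, MT1F at chr16:56657694-56660698, MT1G at chr16:56666731-56668065 on the minus strand and MT1X at chr16:56682424-56684196, the others being on the plus strand. MTF1 (chr1:37809567-37859620) and SLC30A1 (chr1:211571568-211578742) both lie on the minus strand of chromosome 1.

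The 250 bases before the RefSeq transcription start (GRCh38.p14) are given for MT2A, MT1X and SLC30A1, because metal response elements are the feature by which MTF1 reads these genes. RefSeq and the gene models above place some starts differently, and positions here count from the RefSeq start. The capitals mark matches to the core of the element, TGCACNC or TGCGCNC, on either strand.

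MT2A promoter, chr16:56608334-56608583, plus strand: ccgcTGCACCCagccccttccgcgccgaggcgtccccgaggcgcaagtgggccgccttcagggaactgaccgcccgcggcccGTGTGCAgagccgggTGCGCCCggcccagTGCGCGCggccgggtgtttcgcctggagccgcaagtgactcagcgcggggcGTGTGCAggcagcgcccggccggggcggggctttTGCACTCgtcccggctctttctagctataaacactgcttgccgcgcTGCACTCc
MT1X promoter, chr16:56682220-56682469, plus strand: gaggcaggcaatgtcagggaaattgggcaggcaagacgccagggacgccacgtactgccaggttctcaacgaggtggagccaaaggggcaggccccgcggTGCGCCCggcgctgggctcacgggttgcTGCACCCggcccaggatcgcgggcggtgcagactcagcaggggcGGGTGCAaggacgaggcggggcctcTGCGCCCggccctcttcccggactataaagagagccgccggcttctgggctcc
SLC30A1 promoter, chr1:211579162-211579411, minus strand: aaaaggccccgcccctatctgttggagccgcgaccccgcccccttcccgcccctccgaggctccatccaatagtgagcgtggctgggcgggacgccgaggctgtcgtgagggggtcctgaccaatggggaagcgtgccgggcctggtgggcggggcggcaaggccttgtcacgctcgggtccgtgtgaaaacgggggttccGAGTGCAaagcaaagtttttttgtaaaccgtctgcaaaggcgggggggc

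The MT2A window held 7 matches and that of MT1X 4, whereas the SLC30A1 window held 1 and that of MTF1 0. Among 35116 RefSeq windows of the same length, 24.8% held at least 1 match, 0.37% at least 4 and 0.0313% at least 7. Matches were not particular to the expressed members. The window of MT1H, which had 0 reads in every library, held 8. Those of MT1B and MT4, with at most 2 reads in a library, held 3 each. The core of the antioxidant response element, TGACNNNGC, searched on both strands and overlapping none of the other matches, occurred once each in the windows of MT2A, MT1X and SLC30A1 and in 10.9% of all windows. A match describes the letters and is not evidence of binding. Of the 8 members 4 had an entry in the promoter table, and MT1E, MT1F, MT1G and MT1M had none.

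**Figure D1:**
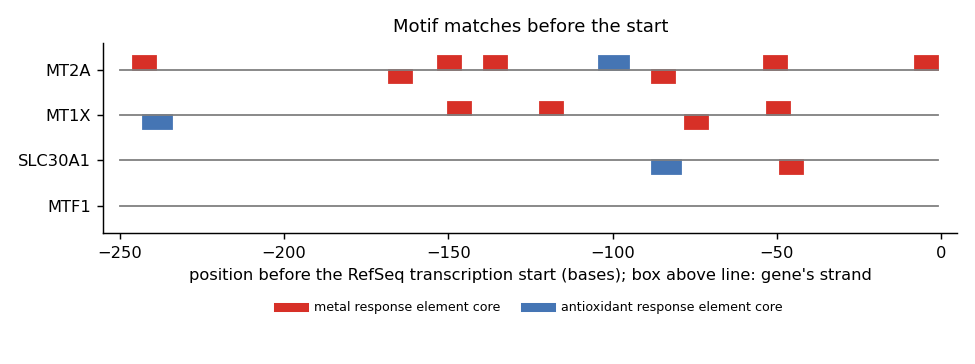
Matches to the metal response element core (red) and the antioxidant response element core (blue) in the 250 bases before the start of MT2A, MT1X, SLC30A1 and MTF1. The x axis is the position before the RefSeq start in bases, and boxes above a line are on the strand of the gene. MT2A carries 7 red boxes, MT1X 4 and SLC30A1 1, and the MTF1 line is empty.

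MT2A, the major human metallothionein, was the most abundant member. It had 9373, 26592 and 12501 normalized reads in GOLPH3 P8, P12 and P13 and 13784, 2393 and 4029 in Vector P12, P11 and P13. The highest value of each group was that of its P12 library, and Vector P12 stood above GOLPH3 P8 and GOLPH3 P13, so the groups overlapped. The highest library exceeded the lowest 11.1-fold. The group means were 16156 ± 9173 (SD, n = 3) for GOLPH3 and 6735 ± 6159 (SD, n = 3) for Vector.

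MT1E, a metallothionein 1 gene that is inducible by metals, was the next in level. Its values were 3245, 8361 and 3341 normalized reads in GOLPH3 P8, P12 and P13 and 4408, 2090 and 1594 in Vector P12, P11 and P13. It followed the same outline as MT2A, with the P12 library highest in either group and Vector P12 above 2 of the 3 GOLPH3 libraries. Its range was narrower, 5.25-fold from the lowest to the highest library. It averaged 4982 ± 2926 (SD, n = 3) with GOLPH3 and 2697 ± 1502 (SD, n = 3) with Vector.

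MT1X, another inducible member, was far lower. It had 176, 509 and 341 normalized reads in GOLPH3 P8, P12 and P13 and 338, 243 and 187 in Vector P12, P11 and P13. The P12 library was again the highest of each group, but GOLPH3 P8 was the lowest library of all. MT1F, the remaining expressed metallothionein, had 64.4, 85.8 and 120 normalized reads in the GOLPH3 group and 60.7, 63.5 and 49.8 in the Vector group, in the same order of libraries. Here P13, not P12, was the highest library of the GOLPH3 group. Every GOLPH3 value lay above every Vector value, although GOLPH3 P8 exceeded Vector P11 by less than 1 normalized read.

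MT1G and MT1M were at or near 0. MT1M had 0 reads in every library and MT1G a single read in Vector P12. The limit set by a count of 0 is 3 reads. That equals 2.47 to 3.29 normalized reads in these libraries and covers counting error only. Neither gene passed the filter on low values, so 6 of the 8 members were tested.

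MTF1, the factor that senses zinc, had 923, 1216 and 883 normalized reads in GOLPH3 P8, P12 and P13 and 873, 863 and 584 in Vector P12, P11 and P13. The groups did not overlap, but GOLPH3 P13 exceeded Vector P12 by only a small margin. SLC30A1, which removes zinc from the cytosol, had 835, 1325 and 661 normalized reads in the GOLPH3 group and 1312, 865 and 910 in the Vector group. Its P12 libraries were close to each other and above all 4 others, and of those 4 both GOLPH3 values were below both Vector values.

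**Figure D2:**
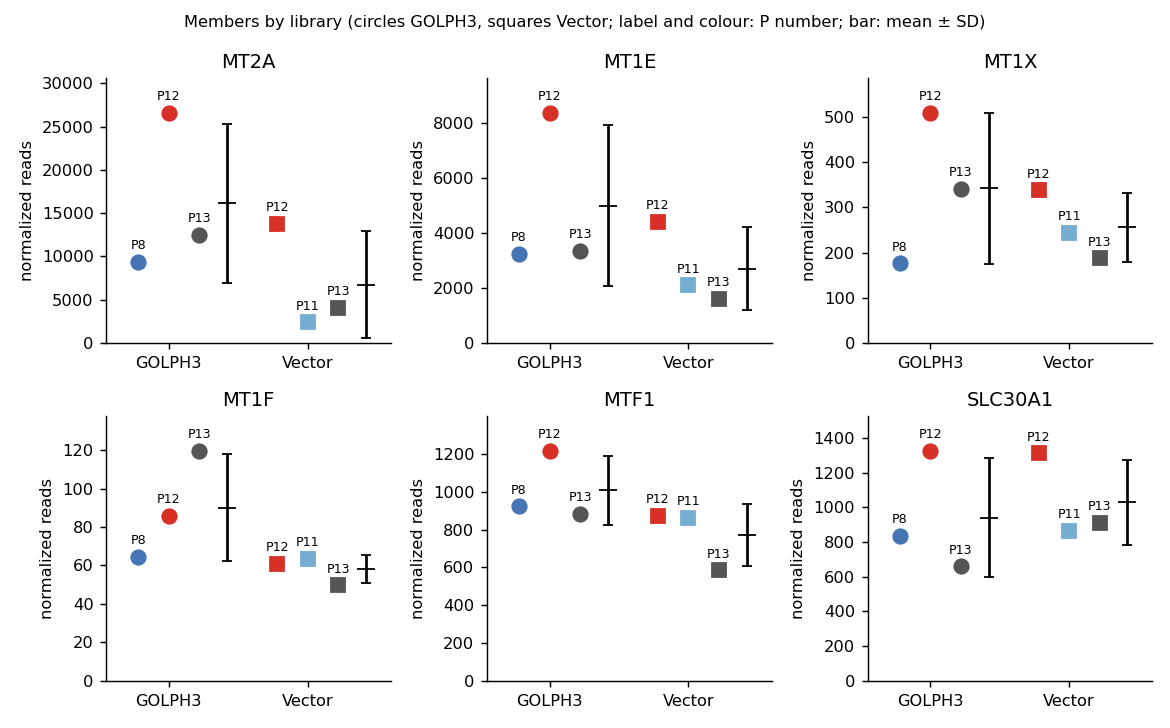
Normalized reads (y axis, linear, from 0) of the 6 expressed members in each library. Circles are libraries labelled GOLPH3 and squares those labelled Vector, the label and colour give the P number, and the bar beside each group is the mean ± SD of 3 libraries. For MT2A, MT1E and SLC30A1 both P12 libraries lie above the other 4 libraries, whereas MT1F and MTF1 separate the groups.

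Per kilobase of the GENCODE transcript, the order of the median levels over the 6 libraries was MT2A (13915 normalized reads per kb), MT1E (4678), MT1X (645), SLC30A1 (162), MTF1 (110) and MT1F (92.7). MT2A and MT1E overlapped in their ranges, at 3044 to 33832 and 2264 to 11876 per kb. MT1X ranged from 391 to 1131 per kb, below every value of MT1E and above every value of SLC30A1. The last 3 genes overlapped, with ranges of 121 to 242 for SLC30A1, 73.3 to 152 for MTF1 and 72.1 to 173 for MT1F.

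The 6 metallothioneins together took 0.0745%, 0.197% and 0.0844% of all reads in GOLPH3 P8, P12 and P13 and 0.109%, 0.0278% and 0.0367% in Vector P12, P11 and P13. MT2A accounted for 72.9%, 74.8% and 76.7% of their normalized reads in the GOLPH3 libraries and for 74.1%, 49.95% and 68.8% in the Vector libraries. MT1E accounted for 25.2%, 23.5% and 20.5% and for 23.7%, 43.6% and 27.2%, respectively. The mix was thus alike in 5 libraries and differed in Vector P11, where the metallothioneins were lowest and MT1E came closest to MT2A.

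The first comparison asked whether the members differed between cells labelled GOLPH3 and those labelled Vector. No member passed the test across all genes, while 1346 of 26536 genes, 5.07%, were called at a limma adjusted p under 0.05, with 253 higher and 1093 lower in GOLPH3. MT2A had the largest difference among the members, 1.52 on the log2 scale of normalized reads + 1 (SE 0.57, 95% interval 0.28 to 2.76, adjusted p = 0.179, unadjusted p = 0.0208). MT1E differed by 0.88 (SE 0.44, adjusted p = 0.342) and MT1F by 0.59 (SE 0.41, adjusted p = 0.512). The log2 differences of MTF1 and MT1X were 0.39 (SE 0.30, adjusted p = 0.549) and 0.33 (SE 0.42, adjusted p = 0.739). SLC30A1 had a log2 difference of -0.17 (SE 0.33, 95% interval -0.89 to 0.55, adjusted p = 0.843). The median over the 6 tested members was 0.49 against 0.016 over all genes tested, and 5 of the 6 values were positive. For 2 of the 6, MT1F and MTF1, every GOLPH3 library lay above every Vector library, against 9.2% of all genes tested. An exact permutation test of 3 libraries against 3 cannot go below a p of 0.1 for a single gene. MT2A passed when Vector P12 was left out (log2 difference 2.23, adjusted p = 0.0215) and in no other fit with a library left out.

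MT2A and MT1E were higher in GOLPH3 in either pair of libraries that share a P number. Within P12, the GOLPH3 library exceeded the Vector library 1.93-fold for MT2A and 1.90-fold for MT1E. Within P13, MT2A exceeded it 3.10-fold and MT1E differed by 1.07 on the log2 scale. MT1X, MT1F and MTF1 were also higher in the GOLPH3 library of both pairs, by 0.59, 0.49 and 0.48 on the log2 scale within P12 and by 0.86, 1.25 and 0.59 within P13. SLC30A1 was level within P12 (log2 difference 0.01) and lower in the GOLPH3 library within P13 (-0.46). GOLPH3 P8 and Vector P11 have no partner of the same number. Between them MT2A differed by 1.97 and MT1E by 0.63 on the log2 scale, whereas MT1X went the other way at -0.46.

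With the P number as a term in the model (12, 13, and 8 with 11 as 1 class), which leaves 2 residual degrees of freedom, the differences kept their size and the errors became smaller. MT2A rose in the libraries labelled GOLPH3 by 1.52 (SE 0.19, 95% interval 1.10 to 1.93, adjusted p = 0.000153) and MT1E by 0.88 (SE 0.15, adjusted p = 0.00138). The other 4 did not pass, with MTF1 nearest (adjusted p = 0.119). These were 2 of 6 members called higher, where 9.43% of all genes tested were called higher in that fit and 11.5% lower. With P12 alone as a term, which was chosen after seeing the data, MT2A passed (adjusted p = 0.0243) and MT1E did not (adjusted p = 0.0916). With the P number class as a term, 8 of 9 tested HEK293 and neuronal-like markers were called lower, against 11.5% of all genes. Of 12 epithelial markers 5 were called higher, against 9.43%. Of 9 fibroblast and mesenchymal markers 2 were called higher and 3 lower. The part of these markers' cell types in the difference of MT2A and MT1E was not tested.

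**Figure D3:**
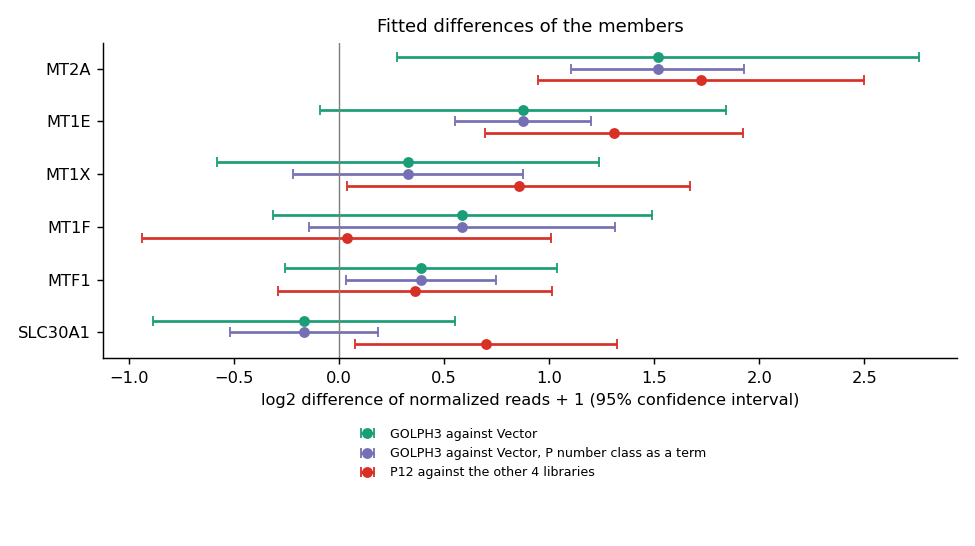
Fitted log2 differences of normalized reads + 1 (x axis) with 95% confidence intervals for the 6 tested members: GOLPH3 against Vector, the same with the P number class as a term, and P12 against the other 4 libraries. The intervals of MT2A and MT1E narrow with the P number class as a term, and the P12 differences are largest for MT2A (1.72) and MT1E (1.31).

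The second comparison set the P12 library of each group against its other 2 libraries, with the group as a term. MT2A was 2.43 times the mean of the other GOLPH3 libraries in GOLPH3 P12 and 4.29 times that of the other Vector libraries in Vector P12. The ratios for MT1E were 2.54 and 2.39, those for MT1X 1.97 and 1.57, and those for SLC30A1 1.77 and 1.48. For 3 of the 6 tested members, MT2A, MT1E and SLC30A1, both P12 libraries lay above the other 4, against 6.74% of all genes tested.

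With limma, 0 of the 6 members and 0.0% of 26536 genes were called for P12, and the smallest adjusted p over all genes was 0.20. At an unadjusted p under 0.05 there were 1920 genes. On the higher side these were 4 of the 6 members, MT2A, MT1E, MT1X and SLC30A1, and 4.02% of all genes. The log2 differences were 1.72 for MT2A (SE 0.35, adjusted p = 0.221) and 1.31 for MT1E (SE 0.28, adjusted p = 0.256), which ranked 64 and 77 of 26536 by p. MT1X differed by 0.86 (SE 0.37, adjusted p = 0.663) and SLC30A1 by 0.70 (SE 0.28, adjusted p = 0.646). MTF1 differed by 0.36 (SE 0.29) and MT1F by 0.04 (SE 0.44). The median over the 6 was 0.78 against 0.021 over all genes. DESeq2 on the recovered reads called 2 members higher, MT2A (adjusted p = 0.00206) and MT1E (adjusted p = 0.0132), where 0.899% of the 15908 genes with an adjusted p were called higher, and edgeR called 0 genes. The P12 call thus held in 1 of the 3 tools. The share of mitochondrial reads was 4.41% in GOLPH3 P12, the lowest of the 6, and 7.08% in Vector P12, against 4.71% to 9.97% in the other 4, and its part in the P12 difference was not tested. The difference between groups in MT2A did not pass a test of its change with P12 (log2 -0.85, SE 0.77, adjusted p = 1.00).

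The genes whose levels over the 6 libraries were most like those of MT2A, by Pearson correlation of log2 values among 12661 genes with a mean of at least 50 normalized reads, were HKDC1, FAM157A, ADGRG1, H2AC6 and ARHGAP10 (r from 0.983 to 0.997). HKDC1, a hexokinase family gene, had 126, 692 and 192 normalized reads in the GOLPH3 libraries and 192, 16.4 and 32.6 in the Vector libraries, in the order used above. ADGRG1, an adhesion receptor, had 1474, 3276 and 1624 against 1439, 463 and 721. MT1E stood at rank 188 (r = 0.91), MT1X at rank 1550 (r = 0.72) and SLC30A1 at rank 3672 (r = 0.44), so the neighbour of MT2A in the cluster was not among its closest matches. For SLC30A1 the 5 closest were GABPB2, ZNF641, SCAF8, UHRF1BP1 and OGT (r from 0.974 to 0.995). OGT, the enzyme that attaches N-acetylglucosamine to cytosolic and nuclear proteins, had 6728, 9880 and 5096 normalized reads in the GOLPH3 libraries and 10316, 7577 and 7801 in the Vector libraries. These correlations rest on 6 libraries that differ in depth and composition and are given as a description.

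The other metallothionein genes and pseudogenes were nearly silent. Of 13 in the table, 9 never exceeded 3 reads in a library, and MT3 and MT4, whose products are known from brain and stratified epithelia, had 0. Of the 3 that were tested none was called in either comparison, and their medians were 1.07 between groups and -0.98 for P12. Among them the pseudogene MT1DP, named after its values were seen, had 7.51, 1.65 and 13.9 normalized reads in the GOLPH3 libraries and 0, 14.2 and 5.15 in the Vector libraries. Its P12 libraries were the lowest of each group, the reverse of MT2A, at a depth of a few reads (P12 log2 difference -2.68, adjusted p = 0.410).

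Other genes of the SLC30A zinc exporter family had a median log2 difference of -0.55 between groups and 0.015 for P12, against 0.016 and 0.021 over all genes tested. Of 8 tested, 0 were called higher in GOLPH3 and 1 lower, and none was called for P12. SLC30A10, known as a manganese exporter, had 0, 0.825 and 3.20 normalized reads in the GOLPH3 libraries and 14.41, 12.05 and 12.02 in the Vector libraries (adjusted p = 0.0349). The GOLPH3 libraries were all at or under 3 reads, and the Vector mean was 4.32 times the mean of the limits of 3 reads per library. That ratio is not a bound, since the limit holds for a count of 0 and reads were present in GOLPH3 P12 and P13. The call of SLC30A10 was lost in 5 of 6 fits with a library left out, for example at an adjusted p of 0.154 without Vector P12, and with DESeq2 (adjusted p = 0.0593). With the P number class as a term 3 of the 8 were called lower, against 11.5% of all genes, namely SLC30A6 (adjusted p = 0.0452), SLC30A9 (adjusted p = 0.0161) and SLC30A10. SLC30A9 had 1709, 1330 and 855 normalized reads against 1924, 2270 and 1516.

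Zinc importers of the SLC39A family, which bring zinc into the cytosol, showed no call in either comparison among 12 tested, with medians of 0.20 and -0.18. With the P number class as a term 3 of the 12 were called higher in GOLPH3 and 1 lower, against 9.43% and 11.5% of all genes. SLC39A4, the intestinal zinc importer, had 466, 1233 and 1291 normalized reads in the GOLPH3 libraries and 564, 225 and 705 in the Vector libraries, and rose by 1.02 on the log2 scale in that fit (adjusted p = 0.000901). The others were SLC39A11 (0.73, adjusted p = 0.00827) and SLC39A13 (0.64, adjusted p = 0.0244) on the higher side and SLC39A8 (-0.66, adjusted p = 0.0234) on the lower. In the P12 comparison SLC39A10, an importer of the plasma membrane and named after its values were seen, moved opposite to MT2A. It had 1457, 354 and 958 normalized reads in the GOLPH3 libraries and 739, 2149 and 928 in the Vector libraries, so that both P12 libraries were the lowest of all. The log2 difference of -1.33 did not pass (adjusted p = 0.467 with limma and 0.0737 with DESeq2).

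**Figure D4:**
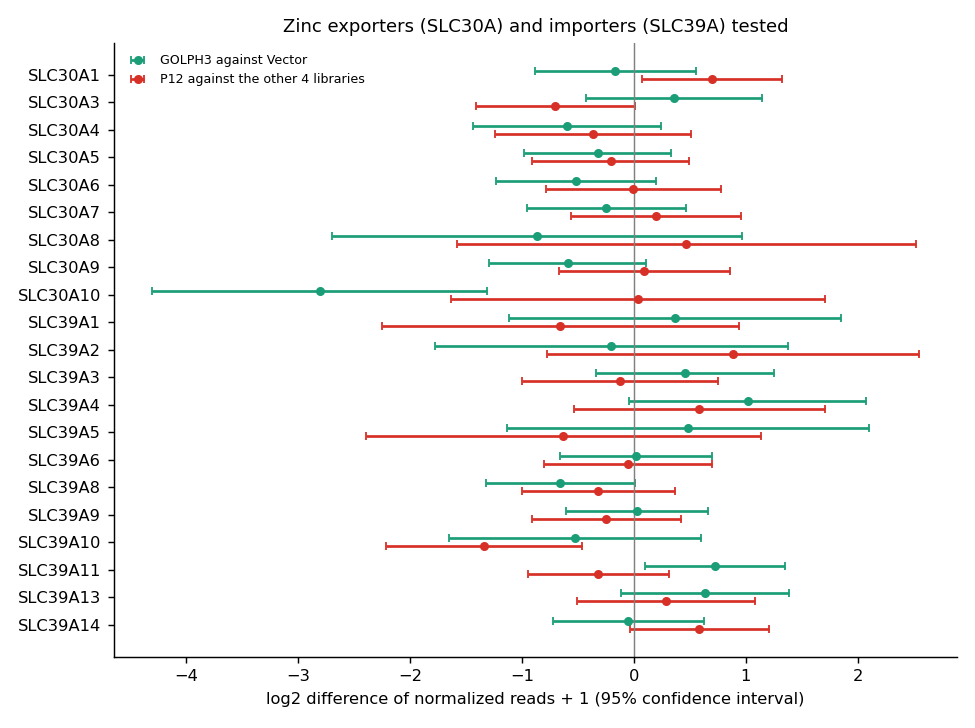
Fitted log2 differences of normalized reads + 1 (x axis, 95% confidence intervals) of SLC30A1 and the 20 other zinc transporters tested, for GOLPH3 against Vector and for P12 against the other 4 libraries. SLC30A10 lies lowest for the group and SLC39A10 lowest for P12. Wide intervals belong to genes with few reads.

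Genes of copper handling showed 0 calls of 13 tested in either comparison, with median log2 differences of -0.0084 between groups and -0.11 for P12. With the P number class as a term 2 of the 13 were called higher and 2 lower, close to the 9.43% and 11.5% of all genes. The higher were the copper chaperone ATOX1 (adjusted p = 0.0312) and the metalloreductase STEAP3 (adjusted p = 0.0156), and the lower were the copper pumps ATP7A (adjusted p = 0.0101) and ATP7B (adjusted p = 0.0314). Genes of the heavy metal and oxidant stress response also had 0 calls of 8 tested, with medians of 0.58 and 0.20. With the P number class as a term 3 of the 8 were called higher in GOLPH3, against 9.43% of all genes: HMOX1, which degrades heme, SRXN1, which repairs peroxiredoxins, and the heat shock cochaperone DNAJB1 (adjusted p = 0.0272, 0.000774 and 0.0164). HSPA1A and HSPA1B, near-identical copies that share reads, had at most 1 read. In the P12 comparison 1 gene of this list, the cystine importer SLC7A11, was higher at an unadjusted p under 0.05. It had 1617, 5012 and 1012 normalized reads in the GOLPH3 libraries and 3680, 1665 and 1321 in the Vector libraries, with both P12 libraries the highest (log2 difference 1.64, adjusted p = 0.216 with limma and 0.00266 with DESeq2).

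Of 8 genes of the glucocorticoid response, 1 was called in the group comparison, and the medians were -0.10 between groups and 0.33 for P12. ZBTB16, a transcription factor gene, was at 0 in every GOLPH3 library and had 35.0, 15.3 and 71.2 normalized reads in the Vector libraries (adjusted p = 0.000562), at least 13.7-fold lower against the limit of 3 reads per library. With the P number class as a term 2 of the 8 were called higher, PER1 (adjusted p = 0.000574) and DUSP1 (adjusted p = 0.0476), and 3 lower, KLF9 (adjusted p = 0.000917), NR3C1 (adjusted p = 0.0177) and ZBTB16, against 9.43% and 11.5% of all genes. None was called for P12. At an unadjusted p under 0.05, NR3C1, the glucocorticoid receptor, and its target TSC22D3 were higher in P12. Of the 8 P12 differences 6 were positive, whereas SGK1 (log2 difference -0.71, SE 0.45) and FKBP5 (-0.02, SE 0.33) were not. TSC22D3 had 486, 2184 and 961 normalized reads in the GOLPH3 libraries and 2138, 239 and 1602 in the Vector libraries (log2 difference 1.73, adjusted p = 0.568). Both P12 libraries were the highest.

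Among the genes that flank the metallothionein cluster, 1 of 7 tested was called in the group comparison, and it was lower. GNAO1, a neuronal G protein subunit, had 2.15, 0.825 and 0 normalized reads in the GOLPH3 libraries and 157, 39.4 and 221 in the Vector libraries (adjusted p = 0.000290). The Vector mean was 47.0 times the mean of the limits of 3 reads per library. That ratio is not a bound, since the limit holds for a count of 0 and reads were present in GOLPH3 P8 and P12. The median log2 difference of the flanking genes was -0.09 between groups and 0.10 for P12, and none was called for P12. For OGFOD1, named after its values were seen, both P12 libraries (1359 and 1813 normalized reads) lay above the other 4 (at most 1272), as for MT2A, with a log2 difference of 0.56 (adjusted p = 0.722).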

How the data were processed

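RNA from 6 libraries labelled HCT-116 was measured by sequencing. Per the submitters' processing notes, the tools were fastp 0.20.0, HISAT2 2.1.0, Cufflinks, featureCounts 1.6.1 and DESeq2, with the build GRCh38. The deposited signal per gene and library is a read count that the authors divided by a library factor: 100.00% of the values checked were whole multiples of 1 step per library (tolerance 0.1 read). The check left out zeros and high values, those of MT2A and MT1E included. Rows sharing an identifier (44) were summed.

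limma 3.58.1 (R 4.3.3) was fitted with trend to log2(value + 1) for genes reaching a value of 1 in 3 or more libraries, with Benjamini-Hochberg adjustment over all genes tested. DESeq2 1.42.0 and edgeR 4.0.16 were run on recovered reads. The fitting code was tested on simulated data. Other alternatives were pseudocount, filter, quantile normalization, library left out, replicate block and P number. No 2 libraries of a group agreed within sampling noise (chi-square per degree of freedom 65.3 to 133). The members and lists were chosen with earlier results of these data known, and 1 marker list is not reported here. Every member was named, as were up to 3 genes per other list with an adjusted p under 0.05 in a comparison and the 5 genes most like MT2A and SLC30A1. Genes named for counts with the P number as a term were chosen after their values were seen. So were the P12 transporter, stress and receptor genes, and COL1A1, COL6A3, THY1, HMGA2, SGK1, FKBP5 and OGFOD1. The same holds for KRT8, CDX1, CDX2, VIL1, CEACAM5, LGALS4, GPA33, CDH17, TFF3, MT1B and MT1H.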

Additional observations from a re-analysis of the deposited data

How the results depend on the processing

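In the group comparison, the count of genes called was 405 with a value of at least 1 in every library, 5549 with the P number class as a term, 775 at an adjusted p under 0.01, and 459 to 1528 with a library left out (lowest without Vector P12, highest without GOLPH3 P8). Members called were 1 with P12 as a term (added after seeing the data), 2 with the P number class and 0 to 1 with a library left out. For P12, DESeq2 called 200 genes and 2 members, and leaving out a library gave 0 to 23 genes (23 without GOLPH3 P13) and 0 members. The replicate numbers of the titles did not pair the libraries, since the correlations of deviations were -0.23, -0.15 and 0.26 for numbers 1, 2 and 3. Libraries sharing a P number gave 0.26 for P12 and 0.26 for P13. GOLPH3 P8 and Vector P11, which share no number and are the pair left over, gave 0.33. Deviations from a group mean sum to 0, so this value is not independent of those for P12 and P13. With the replicate block 1081 genes and 0 members were called, and MT2A had an adjusted p of 0.273.

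Some small differences changed sign. With a library left out, MT1X ranged from -0.022 (without GOLPH3 P12) to 0.74 and SLC30A1 from -0.44 to 0.057 (without GOLPH3 P13), with 0.022 without Vector P12. The P12 difference of MT1F was -0.00051 with DESeq2 and ranged from -0.14 to 0.24, with negative values without GOLPH3 P8, Vector P12 and Vector P13. MT2A and MT1E were higher in GOLPH3 and in P12 under every alternative run, with log2 differences of 0.95 to 2.23 and 0.43 to 1.30 between groups (the differences within P12 and within P13 included) and 1.30 to 2.15 and 1.23 to 1.40 for P12. The genes most like MT2A depended on single libraries: with a library left out 1 to 3 of the 5 stayed among the closest 5, and 0 with quantile normalization. For SLC30A1 these counts were 0 to 3 and 2. Depth limits MT1G, MT1M and 9 other metallothionein genes, which had 3 reads or fewer in every library.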
